A study of Arabidopsis thaliana with 10 samples.

Results

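Vegetative shoot apices of Arabidopsis thaliana that overexpress the microRNA miR319b were compared with apices of the wild-type accession Columbia (Col). The members are the 4 arrays that the sample labels assign to these groups, 2 of miR319b and 2 of Col, of 10 arrays in the series. Col apices were taken at 14 days (the labels' DAS) from untransformed plants. The miR319b apices were taken at 17 days from Col plants labelled as carrying miR319b under 35S, a viral promoter that is active in most plant cells. The plants stood in soil under short days of 10 h light at 20 °C. Age thus differed with genotype, and the effects of the transgene and of 3 more days cannot be told apart in this comparison. The labels do not say how many lines or plants gave each sample, or that the samples of a group were grown separately. Every p-value therefore measures only the spread between arrays of the same group, pooled over all 5 groups of the series. That spread may be technical.

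The other 6 arrays entered the analysis for the estimate of the spread and for the comparisons of octa with miR-3TCP and with miR319b. Col plants with miR-3TCP, an artificial microRNA under 35S against TCP5, TCP13 and TCP17, were taken at 14 days. A line labelled octa, in the Col background, was taken at 18 days. It is read here as the combination of both microRNAs that the study's design describes, because the label itself gives only the name. BLS>>TCP4 plants, in the Landsberg erecta (Ler) accession and taken at 14 days, express TCP4 from the leaf promoter BLS. Comparing octa with miR-3TCP also adds miR319b, on arrays that the comparison of miR319b with Col does not use, although age differs there too (18 against 14 days).

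As background, TCP proteins are plant transcription factors, and those of the CINCINNATA (CIN) class restrain the growth of leaf margins and favour the passage of leaf cells from division to differentiation. The study's design lists 8 such genes, of which miR319b targets 5, namely TCP2, TCP3, TCP4, TCP10 and TCP24. MicroRNAs of the miR319 family pair with these messenger RNAs and cause their cleavage, and plants with much miR319 have crinkled, serrated leaves. No probe set is listed for any of the 8 CIN-TCP genes. Their transcripts are not analysed here, and the labels are taken as given without a check on the targets.

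Each value is the signal of a probe set on an Affymetrix array, on a linear scale made with MAS5 and scaled so that the median of every array is 50. Differences between groups are given on the scale log2(signal + 16), on which a value of 1 is 2-fold for bright probe sets and more than 2-fold for dim ones. Errors of differences are standard errors (SE) and errors of signals are standard deviations (SD) over 2 arrays. All p-values are from limma and, where called adjusted, follow Benjamini-Hochberg over all 13648 probe sets tested. A probe set was called when its adjusted p was under 0.05. The 2 Col arrays correlated at r = 0.979 and the 2 miR319b arrays at r = 0.975 across the probe sets tested, a description in which probe sets are not independent. Precision is limited by the small number of arrays, with a median SE of 0.17 for a difference.

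The labelled tissue was checked with marker genes. Of the leaf primordium markers, 2 were measured and both were bright enough to test. YAB3, a regulator of the lower leaf side, had signals of 308 and 389 in Col and 387 and 411 in miR319b. YAB5, a relative of it, was dim, with 42.6 and 39.7 in Col and 58.0 and 60.4 in miR319b. Of the shoot meristem markers, CLV3 and UFO were measured, and both were under 8 on every array. Of the senescent leaf markers, SAG29 and WRKY53 were measured and neither passed the filter on low signals.

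Markers of expanded leaves were bright in both groups and were not called. RCA, which activates the carbon-fixing enzyme Rubisco, gave 2901 and 2992 in Col and 2927 and 2996 in miR319b (difference 0.01 ± 0.08, adjusted p = 0.967). PSAN and PSAE-1, subunits of photosystem I, differed by -0.10 ± 0.11 and -0.03 ± 0.10. The root marker PYK10 was also bright, at 1886 and 1917 in Col and 2113 and 2067 in miR319b, and was not called (adjusted p = 0.678). In such bulk samples, fewer cells of a type and less RNA per cell cannot be told apart.

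In miR319b apices, 4 of 7 tested genes of mitosis and 5 of 9 of chlorophyll and haem synthesis were called lower than in Col, and a smaller number of genes, among them the organ growth regulator JAG, the glutaredoxin gene ROXY1 and the metallothionein gene MT1C, were higher. Of 13648 probe sets tested, 518 were called (3.8%), 158 of them higher (1.16%) and 360 lower (2.64%). An unadjusted p under 0.05 was reached by 3062. Of the called, 129 differed by 2-fold or more on the log2(signal + 16) scale, 33 higher and 96 lower. The median size of a called difference was 0.78 for the higher and 0.82 for the lower ones, while the median difference over all probe sets tested was -0.01. The 2 arrays of each group did not overlap for any of the 518, nor for 7753 of all tested (56.8%), which splits into 26.5% of all tested with miR319b higher and 30.3% with it lower. Separate groups were thus shared by every call. Where they are given below, they describe the values and add no support to a call.

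The platform table names a single gene for 228 of the called probe sets, several for 12 and none for 278. Of the 1035 tested probe sets whose gene has a symbol beyond its locus tag, 41 were called, 11 higher and 30 lower. Calls were more frequent among bright probe sets, at 1.54% and 7.51% in the dimmest and the brightest of 5 equal bins of mean signal. The number of calls rested on the arrays used. It was 1332 without the BLS>>TCP4 arrays, whose replicates differed more (SD of the log2 difference between replicates 0.44, against 0.27 in Col and 0.30 in miR319b). It was 57 and 14 without miR319b replicate 1 or 2, 19 and 7 without Col replicate 1 or 2, and 256 to 260 when any single array of octa or miR-3TCP was left out.

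**Figure D1:**
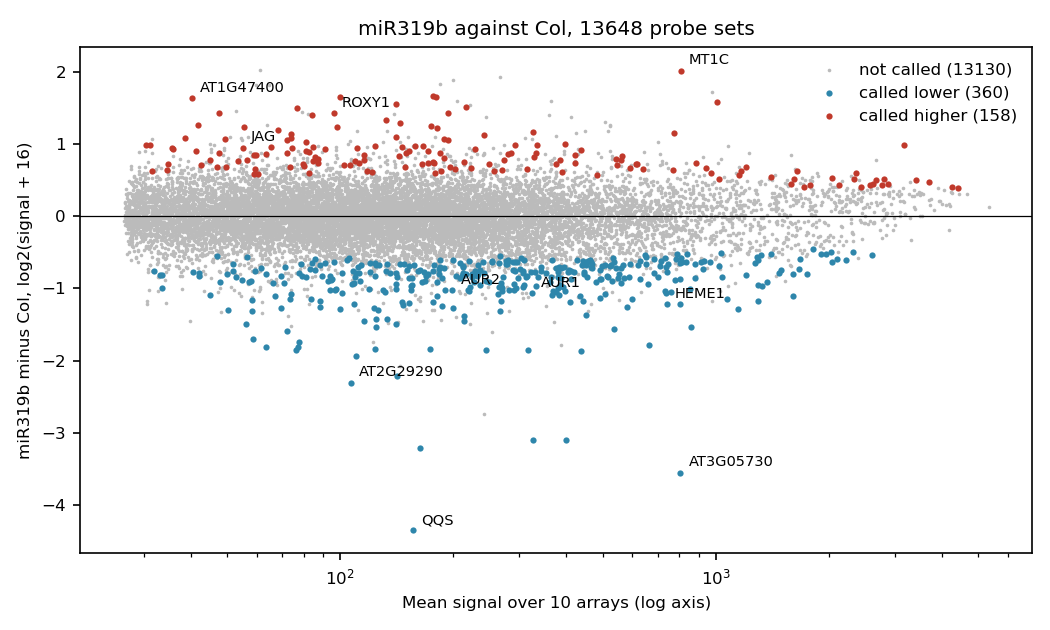
Difference between miR319b and Col on the log2(signal + 16) scale (vertical axis) against the mean signal over the 10 arrays (horizontal log axis) for 13648 probe sets, each a point. The 158 called higher are red, the 360 called lower are blue, and QQS and AT3G05730 lie lowest among the genes labelled.

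Genes of mitosis and the spindle were lower as far as they were called. Of 7 members tested, 4 were called lower and none higher, beside 2.64% and 1.16% of all probe sets tested. Their median difference was -0.71, beside -0.01 for all probe sets tested. AUR2, an Aurora kinase of the spindle and of the forming cell plate, gave 245 and 249 in Col and 116 and 109.8 in miR319b. Both miR319b arrays were thus below both Col arrays, as for 30.3% of all tested (difference -1.03 ± 0.13, adjusted p = 0.00727). AUR1, the closest relative of AUR2, gave 345 and 415 in Col and 185 and 159.7 in miR319b (-1.07 ± 0.17, adjusted p = 0.0167). Whether the probe sets of these similar genes respond to each other's transcripts was not tested.

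KINESIN-12B, a motor protein of the phragmoplast that builds the new cell wall, gave 78.7 and 87.0 in Col and 36.0 and 36.2 in miR319b (-0.92 ± 0.15, adjusted p = 0.0171). BUBR1, of the checkpoint that holds cells until chromosomes are attached to the spindle, gave 85.9 and 82.1 in Col and 50.3 and 40.4 in miR319b (-0.71 ± 0.14, adjusted p = 0.0279). The groups were separate for both genes, as for every call. The 3 members not called were AUR3, a more distant Aurora kinase (-0.50 ± 0.15, adjusted p = 0.0831), KINESIN-13A (-0.09) and HTR12, the histone of centromeres (-0.01). Each of the 4 calls was lost when a single Col array or miR319b replicate 2 was left out, and AUR2 alone remained called without miR319b replicate 1. The median difference of the 7 members was between -0.83 and -0.59 in these fits.

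The genes 3xHMG-box1 and UBC20 are outside the list and were picked from the called genes after their values were seen. 3xHMG-box1, a protein that binds condensed chromosomes, gave 132 and 161 in Col and 87.3 and 58.8 in miR319b (-0.88 ± 0.19, adjusted p = 0.0366). UBC20, a ubiquitin-conjugating enzyme, fell by 0.78. Of 4 DNA replication genes none was called, and 3 had positive differences (median 0.38). TOPII, a topoisomerase, was the 1 with a negative difference and had the smallest p (-0.52 ± 0.17, adjusted p = 0.119). The 2 tested core histone genes differed by -0.01 and 0.87, and neither was called (smallest adjusted p = 0.0546).

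The same 4 mitosis genes showed low signals in octa and not in miR-3TCP. AUR2 gave 243 and 255 in miR-3TCP and 121 and 108 in octa (octa minus miR-3TCP -1.02 ± 0.13, adjusted p = 0.0119). BUBR1 gave 101 and 93.1 in miR-3TCP and 41.6 and 36.8 in octa (-1.03 ± 0.14, adjusted p = 0.016), and AUR1 differed by -0.96 ± 0.17 (adjusted p = 0.0265). KINESIN-12B, with -0.66 ± 0.15, missed the threshold (adjusted p = 0.0539). In that comparison 3 of the 7 members were called lower and none higher, against a background of 330 of 13648 called (2.42%, with 0.308% higher and 2.11% lower).

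Genes of tetrapyrrole synthesis, the pathway that leads from glutamate to haem and chlorophyll, made up the list with the most calls. All 9 members tested had negative differences, with a median of -0.69, beside -0.01 over all probe sets tested. Of the 9 members, 5 were called lower, beside 2.64% of all tested. In pathway order, HEMA2, a glutamyl-tRNA reductase of the entry step, gave 94.8 and 81.5 in Col and 49.0 and 32.7 in miR319b (-0.89 ± 0.19, adjusted p = 0.04). HEMB1, the aminolevulinate dehydratase that forms the first pyrrole, gave 1064 and 1316 in Col and 724 and 726 in miR319b (-0.69 ± 0.13, adjusted p = 0.0265). The miR319b arrays lay below the Col arrays for both, as for every called fall.

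HEME1 and HEME2 encode uroporphyrinogen decarboxylases, which act before the branch to haem and chlorophyll. HEME1 gave 671 and 958 in Col and 361 and 314 in miR319b (-1.21 ± 0.21, adjusted p = 0.0196). HEME2 gave 975 and 1075 in Col and 572 and 562 in miR319b (-0.83 ± 0.13, adjusted p = 0.0142). CHLI2, a subunit of the magnesium chelatase that opens the chlorophyll branch, gave 360.4 and 425 in Col and 184 and 201 in miR319b (-0.97 ± 0.18, adjusted p = 0.0265). For these 3 genes the highest miR319b array was below the lowest Col array, as for every called fall and 30.3% of all tested.

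The other 4 members, which did not pass the threshold, were GSA1 of aminolevulinate synthesis (-0.54 ± 0.16, adjusted p = 0.0844), hemf2 of coproporphyrinogen oxidation (-0.65 ± 0.27, adjusted p = 0.187), the methyltransferase CHLM (-0.55 ± 0.15, adjusted p = 0.0752) and PORB, which reduces protochlorophyllide in the light (-0.47 ± 0.31, adjusted p = 0.402). None of the 5 calls remained when any of the 4 arrays of miR319b and Col was left out, while the median difference of the 9 members stayed between -0.85 and -0.57. In octa against miR-3TCP, 5 of the 9 members were again called lower, beside 2.11% of all probe sets tested. All 9 differences were negative there, with a median of -0.70. The expanded leaf markers were lower by value there too, with 3 of 3 differences negative (median -0.22) and 1 called, PSAE-1, at 2590.1 and 2734 in miR-3TCP and 1897 and 1998 in octa (-0.45 ± 0.10, adjusted p = 0.043). Their part in the lower signals of octa was not tested. CHLI2 gave 409.7 and 491 in miR-3TCP and 157 and 188 in octa (-1.30 ± 0.18, adjusted p = 0.0163). HEMA2 was not called there (-0.29 ± 0.19, adjusted p = 0.62), whereas GSA1 was (-0.70 ± 0.16, adjusted p = 0.0489).

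**Figure D2:**
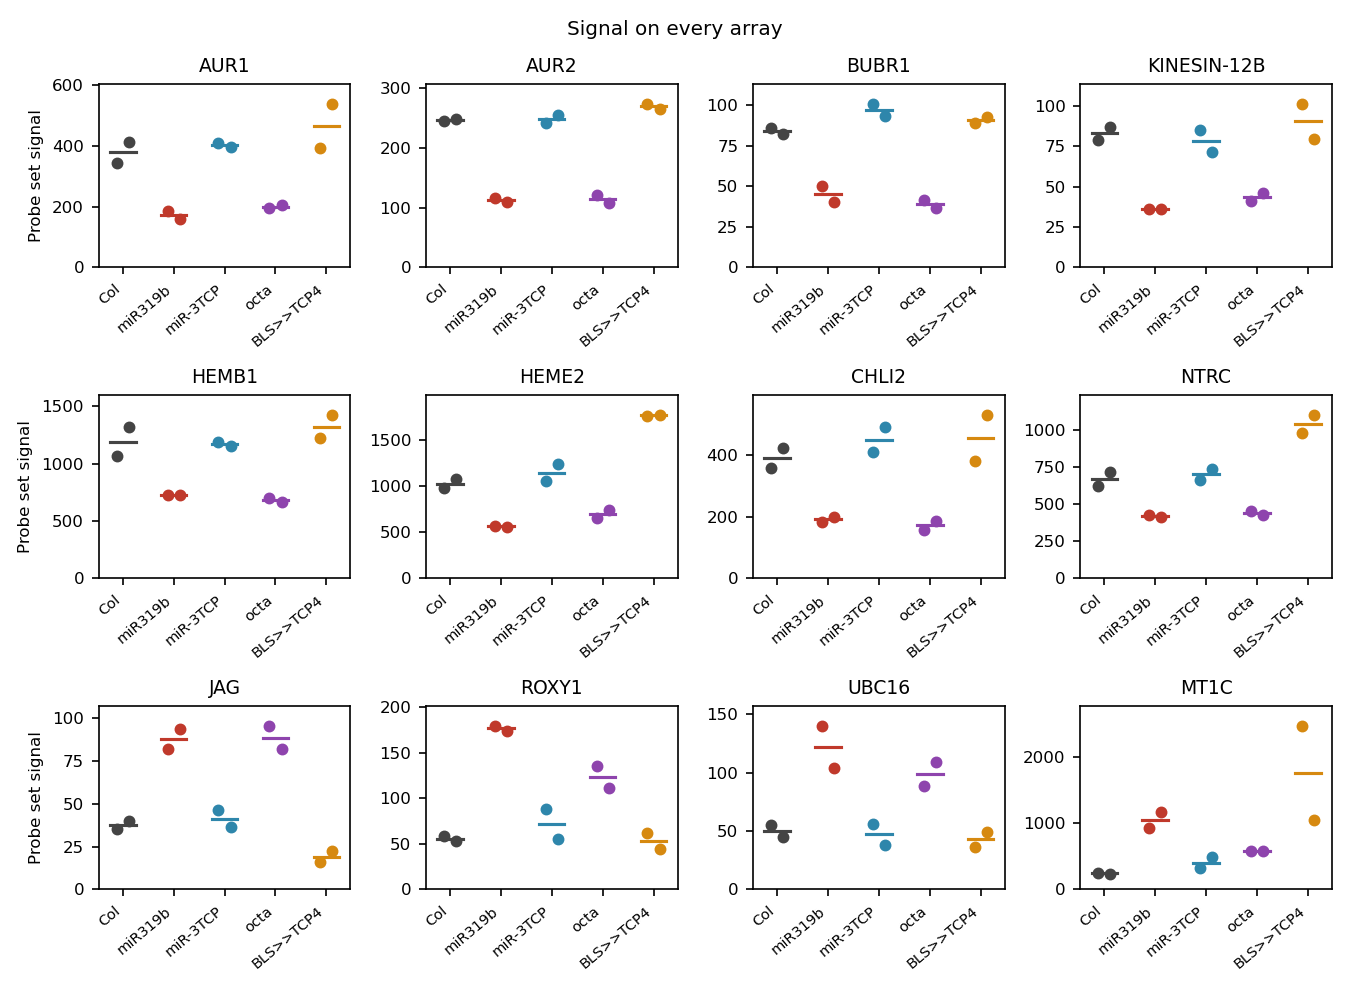
Signal on each of the 10 arrays (points, linear axis from 0) and the mean of each group (bars) for 12 called genes. They are a selection from the called genes of mitosis, plastids and organ growth, and also UBC16 and MT1C. Other called genes, among them HEMA2 and HEME1, are not shown. In the top row and the middle row the miR319b and octa arrays lie below the Col and miR-3TCP arrays, and for JAG, ROXY1 and UBC16 they lie above them.

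Other plastid genes were split between called and not called. Of 7 genes of plastid division, protein import and proteases, 2 were called lower and none higher, beside 2.64% and 1.16% of all tested. Their median difference was -0.61, beside -0.01 over all tested. FTSZ2-2, a tubulin-like protein of the plastid division ring, gave 181 and 184 in Col and 112 and 105 in miR319b (-0.67 ± 0.14, adjusted p = 0.0343). CLPP4, a subunit of the Clp protease of the stroma, gave 833 and 977 in Col and 565 and 603 in miR319b (-0.61 ± 0.14, adjusted p = 0.0415). Cpn60beta3, a chaperonin, had a positive difference (0.49 ± 0.21, adjusted p = 0.198).

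The list of glutaredoxin and thioredoxin genes, matched by gene name, had 10 tested members. Of these, 1 was called lower and none higher, beside 2.64% and 1.16% of all tested. ROXY1, a called glutaredoxin that rose, is described with the organ growth genes and is not in this list. The called member is NTRC. It encodes a thioredoxin reductase of chloroplasts and gave 624 and 717 in Col and 424 and 411 in miR319b (-0.66 ± 0.13, adjusted p = 0.0293). The list of photosystem and light-harvesting genes, matched by gene name and without plastid-encoded genes, had 5 tested members. None was called, and their median difference was -0.13. PSBY, a small subunit of photosystem II, had the smallest p of them (-0.25 ± 0.10, adjusted p = 0.163). Of 4 Calvin cycle genes none was called (median -0.17), with SBPASE, a phosphatase of the cycle, at -0.34 ± 0.12 (adjusted p = 0.137). The leaf markers given above were not called. That the tetrapyrrole genes differ from the photosystem genes was not tested.

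The next 8 genes were picked from the 30 called falls with a symbol after their values were seen, so their shared plastid roles are background and no count of such genes is drawn from them. MAP1C, a methionine aminopeptidase, gave 583 and 879 in Col and 272 and 313 in miR319b (-1.25 ± 0.25, adjusted p = 0.032). LrgB, a glycolate and glycerate carrier of the chloroplast envelope, gave 620.1 and 727 in Col and 336 and 296 in miR319b (-1.05 ± 0.17, adjusted p = 0.0171). NdhL, a subunit of the chloroplast NADH dehydrogenase-like complex, gave 231 and 285 in Col and 127 and 86.6 in miR319b (-1.17 ± 0.20, adjusted p = 0.0201). The groups did not overlap for these 3 genes, as for every call.

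Smaller called falls were seen for CFM3A, a splicing factor of plastid introns (-0.75), and CRR21, an RNA editing factor (-0.80). The list of organelle RNA factors, matched by gene name, went the other way by value. All 3 tested members had positive differences (0.12 to 0.85, median 0.61), and none was called. UPP, a uracil phosphoribosyltransferase (-0.67), and GR, a glutathione reductase (-0.59), were also called lower. SPP, the peptidase that removes transit peptides in the stroma, was called lower with 1 probe set (-0.76). A second probe set with the same symbol differed by 0.04. The 2 were paired by symbol alone, and whether both measure the same gene was not tested.

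Grouped by symbol, a grouping made after the values were seen, 8 nuclear photosystem and light-harvesting genes were tested and none was called (median -0.10). The 10 plastid-encoded photosystem genes tested were all dim, with mean signals between 27.7 and 58.7. Of these, 1 was called higher and none lower (median 0.01), beside 1.16% and 2.64% of all tested. That gene was psbA, of the photosystem II core, with 51.0 and 39.5 in Col and 73.5 and 106 in miR319b (0.78 ± 0.18, adjusted p = 0.0477).

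**Figure D3:**
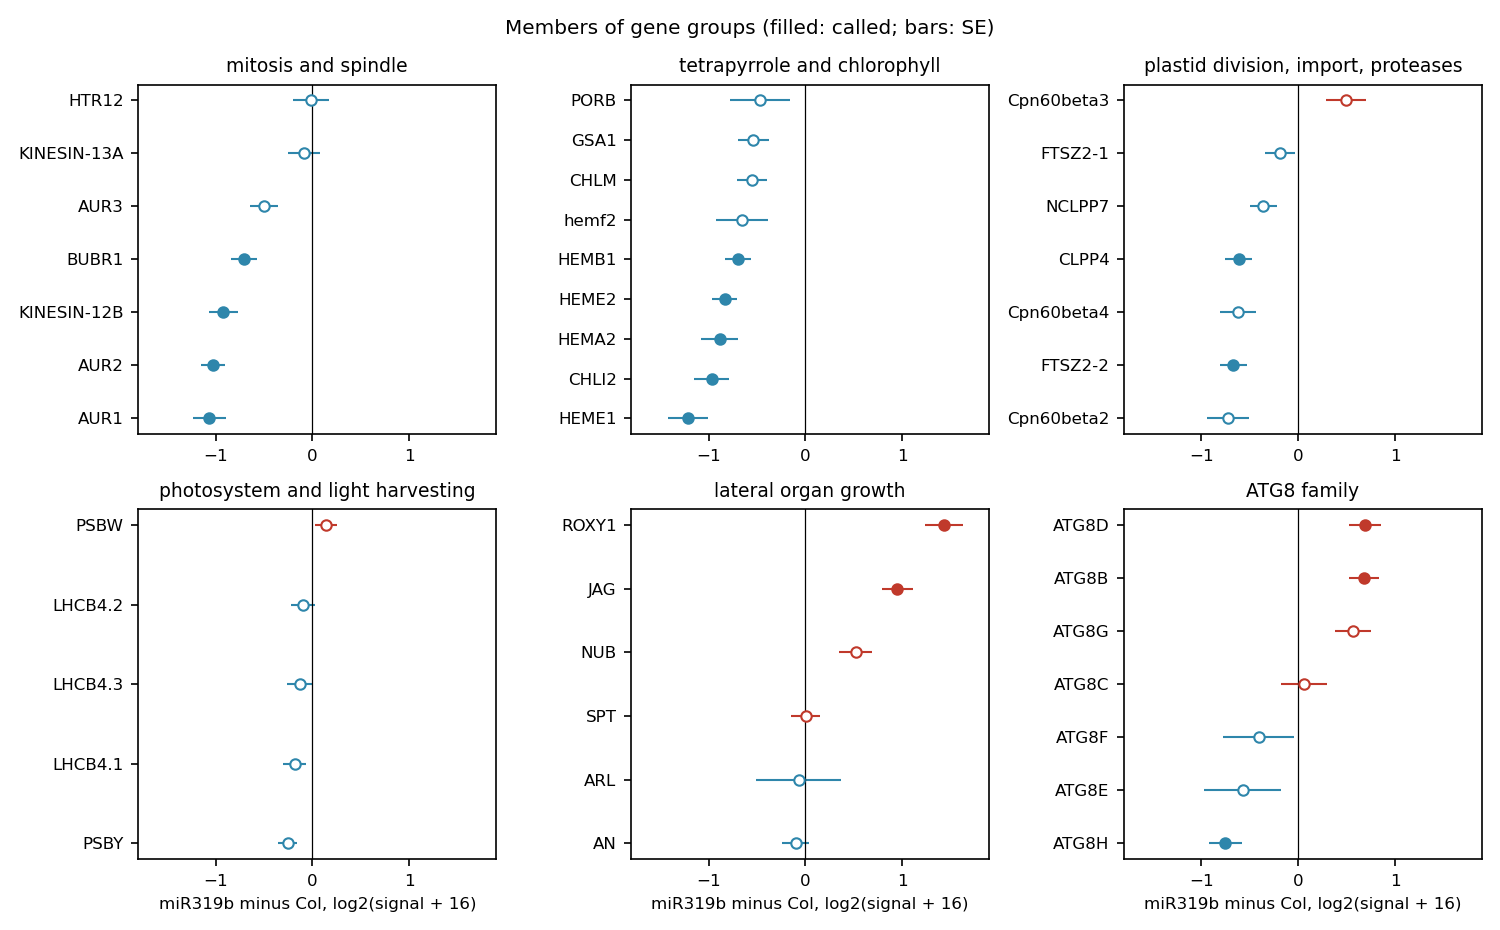
Difference between miR319b and Col on the log2(signal + 16) scale (points, bars are SE) for every tested member of 5 gene lists and of the ATG8 family. Filled points are called at an adjusted p under 0.05, blue is negative and red positive; all 9 tetrapyrrole genes are left of 0 and 5 are filled, and none of the 5 photosystem genes is filled.

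Among regulators of lateral organ growth, 2 of 6 tested were called, both higher, beside 1.16% called higher of all probe sets tested. JAG, a zinc finger protein that promotes the growth of leaf and petal margins, gave 35.5 and 40.02 in Col and 82.3 and 93.6 in miR319b. Both miR319b arrays were above both Col arrays, as for 26.5% of all tested (0.95 ± 0.16, adjusted p = 0.0195). The same pattern was present in octa, at 95.5 and 81.8, against miR-3TCP, at 46.4 and 36.3 (0.87 ± 0.16, adjusted p = 0.0299). BLS>>TCP4, with 15.8 and 22.4, had the lowest signals of the series, in another accession.

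ROXY1, a glutaredoxin known for its role in petal initiation, gave 58.1 and 52.8 in Col and 179 and 174 in miR319b (1.43 ± 0.20, adjusted p = 0.0123). Its difference between octa, at 135 and 112, and miR-3TCP, at 87.8 and 55.2, was smaller and was not called (0.69 ± 0.20, adjusted p = 0.116). NUB, the closest relative of JAG, gave 36.0 and 28.9 in Col and 51.3 and 55.3 in miR319b and was not called (0.52 ± 0.17, adjusted p = 0.109). AN (-0.10), ARL (-0.07) and SPT (0.00) were not called either. Of 3 leaf polarity genes none was called, and PHV, which specifies the upper leaf side, was at 0.58 ± 0.20 (adjusted p = 0.129).

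The largest rise with a single gene was MT1C, a metallothionein, a small protein that binds metal ions. It gave 252 and 238 in Col and 927 and 1164 in miR319b, 4.04-fold on the log2(signal + 16) scale (2.02 ± 0.33, adjusted p = 0.0171). MT1C was also at 327 and 482 in miR-3TCP, 574 and 585 in octa, and 2460.1 and 1048 in BLS>>TCP4, so Col was the lowest group. The difference between octa and miR-3TCP was not called (0.53 ± 0.33, adjusted p = 0.585). MT1C was the only call among the 4 tested members of the list of metal and iron genes, beside 1.16% called higher of all tested. That list was matched by gene name and can miss genes known only by a locus tag.

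UBC16, a ubiquitin-conjugating enzyme, gave 55.5 and 45.1 in Col and 140.0 and 104 in miR319b (1.05 ± 0.20, adjusted p = 0.0279). PMEAMT, a methyltransferase of choline synthesis, gave 167 and 182 in Col and 316 and 308 in miR319b (0.79 ± 0.17, adjusted p = 0.0413). FAC1, an AMP deaminase, and UNG, a uracil DNA glycosylase of base repair, each rose by 0.78, and RRP41L, related to a subunit of the RNA exosome, by 0.69. For PMEAMT, octa (199.7 and 195) was no higher than miR-3TCP (187 and 245), with a difference of -0.11 ± 0.17.

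The ATG8 genes, whose proteins are attached to the membranes of autophagosomes, moved in both directions. Of 7 measured members, 2 were called higher and 1 lower, beside 1.16% and 2.64% of all probe sets tested. ATG8B gave 43.2 and 34.4 in Col and 65.9 and 77.2 in miR319b (0.68 ± 0.16, adjusted p = 0.045). ATG8D gave 57.4 and 65.8 in Col and 99.6 and 119 in miR319b (0.69 ± 0.16, adjusted p = 0.048). ATG8H gave 39.3 and 43.8 in Col and 17.1 and 19.1 in miR319b (-0.75 ± 0.17, adjusted p = 0.0439). Its miR319b signals lie below the filter signal of about 26.4, so the size of this fall depends on the pseudocount. ATG8C, ATG8E, ATG8F and ATG8G were between -0.57 and 0.57 and were not called. This family was picked after the values of its members were seen.

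Of the 15 largest falls with a single gene, 14 have no symbol beyond the locus tag. The exception, QQS, a gene known for its influence on starch content, had the largest fall. It gave 805 and 677 in Col and 20.9 and 21.1 in miR319b (-4.35 ± 0.19, adjusted p = 8.11e-06). All other groups were low too, with 1.42 and 7.77 in miR-3TCP, 11.6 and 12.5 in octa, and 5.66 and 1.18 in BLS>>TCP4. Col was thus the only group with a high signal. QQS passed the filter on low signals only through the Col arrays, and its signals elsewhere lie below that filter, at about 26.4, so the size of its fall depends on the pseudocount (-3.24 with a pseudocount of 64).

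AT3G05730 gave 682 and 608 in Col and 47.1 and 34.3 in miR319b (-3.55 ± 0.19, adjusted p = 3.47e-05). It was at 305 and 221 in miR-3TCP, at 21.0 and 22.8 in octa and at 2702 and 3398 in BLS>>TCP4. Octa minus miR-3TCP was -2.86 ± 0.19 (adjusted p = 0.000273). AT2G29290 gave 81.3 and 133 in Col, 8.31 and 8.42 in miR319b, 124 and 137 in miR-3TCP, and 8.08 and 11.9 in octa. Its 2 differences were -2.30 ± 0.22 (adjusted p = 0.00203) and -2.50 ± 0.22 (adjusted p = 0.00143). The signals of AT2G29290 in miR319b and octa lie below the filter signal of about 26.4, so both sizes depend on the pseudocount. Both genes were therefore low in both groups with miR319b and highest in BLS>>TCP4, where AT2G29290 was at 231 and 324. The BLS>>TCP4 arrays are of another accession, Ler. Their bright signals were also higher in general, with a 99th percentile of 2684 and 2807, against 1688 and 1755 in Col. The part of either in these high values was not tested.

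The remaining 12 of these falls lay between -1.87 and -1.31. AT4G38950 (-1.45 ± 0.20, adjusted p = 0.0119) and AT5G44680 (-1.43 ± 0.13, adjusted p = 0.00165) were also called lower in octa against miR-3TCP. Of all 15 largest falls, 11 kept their sign in that comparison and 6 were called lower there. AT2G20670 was 1 of those that went the other way. It gave 216 and 367 in Col and 67.4 and 66.6 in miR319b (-1.84 ± 0.39, adjusted p = 0.036). In miR-3TCP it gave 139.7 and 133, and in octa 117 and 269 (0.35 ± 0.39). AT2G30600, at -1.85 ± 0.44, only just passed (adjusted p = 0.0498), and its second probe set (-1.32) was not called.

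The 15 largest rises ran from 1.05 to 2.02, and 12 of them have no symbol beyond the locus tag. AT1G29270 gave 126 and 137 in Col and 325 and 327 in miR319b (1.22 ± 0.13, adjusted p = 0.00519), and 119 and 135 in miR-3TCP and 288 and 318 in octa (1.16 ± 0.13, adjusted p = 0.00857). AT1G20070 gave 126 and 93.1 in Col and 296 and 386 in miR319b (1.51 ± 0.30, adjusted p = 0.0292) and was also called in octa against miR-3TCP (1.79 ± 0.30, adjusted p = 0.0247). These were the only 2 of the 15 called in both comparisons.

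AT3G55920 showed another pattern. It gave 26.0 and 30.5 in Col and 114 and 132 in miR319b (1.65 ± 0.19, adjusted p = 0.00578), but was at 109 and 110.4 in miR-3TCP, 119 and 77.8 in octa, and 127 and 156 in BLS>>TCP4. As for QQS, Col stood apart from all 4 other groups. AT1G44835 gave 131 and 115 in Col and 329 and 392.1 in miR319b (1.44 ± 0.20, adjusted p = 0.0118), with 128 and 149 in miR-3TCP and 174 and 162 in octa (0.26 ± 0.20). AT1G47400 gave 18.0 and 15.5 in Col and 76.0 and 97.1 in miR319b (1.64 ± 0.23, adjusted p = 0.013). Its Col signals lie below the filter signal of about 26.4, so the size of this rise depends on the pseudocount.

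Over all calls, the comparison of octa with miR-3TCP showed the same sign for 349 of the 360 falls and for 119 of the 158 rises. Together these were 468 of 518, or 90.3% (exact 95% interval 87.5 to 92.8%, which treats probe sets as independent), beside 62.4% over all probe sets tested. Of the falls, 149 were also called lower there, with a median of -0.65 beside -0.82 in miR319b against Col. Of the rises, 17 were also called higher, with a median of 0.26 beside 0.78. When 1 array of octa or miR-3TCP was left out of the whole fit, 5 to 16 falls and 0 to 1 rises were called in both comparisons. All probe sets tested leaned the same way, since 70.2% of those with a negative difference and 54.2% of those with a positive one kept their sign. This lean depended on how the arrays were scaled. The 2 shares were 62.4% and 62.2% after centring each array on its median. After quantile normalization they were 61.4% and 64.4%. Among the called rises the share that kept the sign was 66.7% with a stricter filter at the 60th percentile and 84.7% after quantile normalization.

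The difference between the 2 effects was tested for every probe set, and only QQS was called (0.00733% of those tested; 974 had an unadjusted p under 0.05). Its effect differed by -4.81 ± 0.27 (adjusted p = 8.75e-05), a size that depends on the pseudocount, since QQS was below the filter signal on every array but those of Col. Its signals in miR-3TCP were already too low for a fall of such size in octa. The call therefore rests on the high Col arrays, and no conclusion is drawn from it. With a pseudocount of 1 or the 60th percentile filter QQS was not tested. An unadjusted p under 0.05 for the difference was found for 93 of the 158 rises and 59 of the 360 falls. Since the calls were made with the same miR319b and Col arrays, large differences there were selected, and these counts are a description. Whether rises and falls differ in how far they carry over was not tested.

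**Figure D4:**
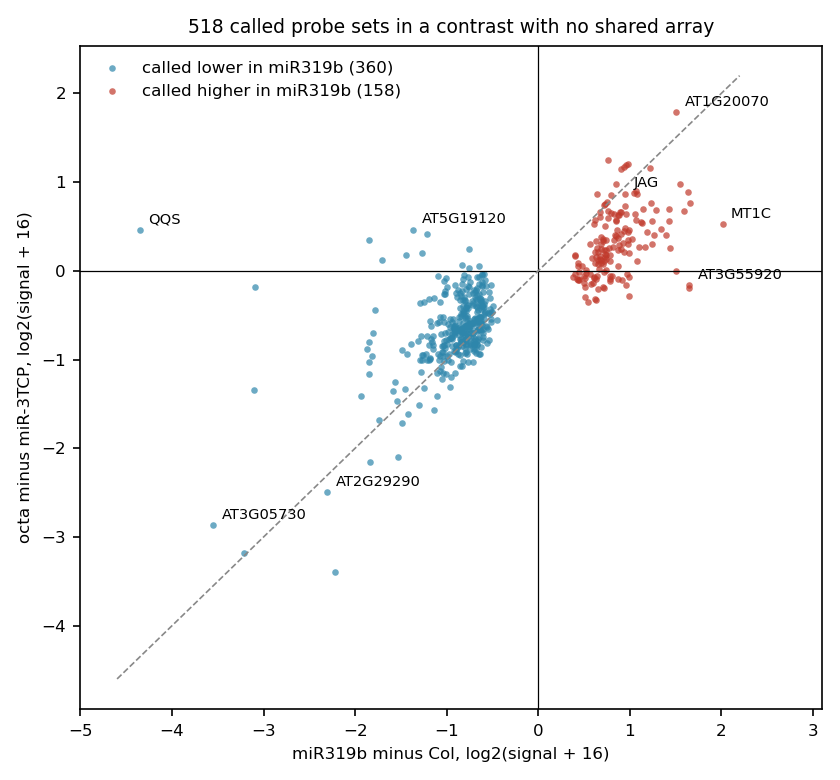
Difference between octa and miR-3TCP (vertical axis) against the difference between miR319b and Col (horizontal axis), both on the log2(signal + 16) scale, for the 518 called probe sets. The dashed line marks equal differences; 349 of 360 falls (blue) are below 0 on the vertical axis and 119 of 158 rises (red) above it, and QQS lies apart at the far left.

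No probe set was called between octa and miR319b directly (limma, 0% of 13648, with 1342 at an unadjusted p under 0.05). JAG differed by 0.01 ± 0.16 and AUR2 by 0.02 ± 0.13 between these groups. AT1G44835 was lower in octa by value (-1.03 ± 0.20, adjusted p = 0.243), as was MT1C (-0.83 ± 0.33, adjusted p = 0.444). Up to 2 probe sets were called with other settings of the pseudocount, filter or normalization. A missed threshold does not show that the lines were alike, and their ages differed by 1 day.

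Of the 62 gene lists, 47 had a measured member and 28 had at least 3 members tested. In 22 of these 28 no member was called. Among hormone genes, YUC2 and YUC4, both flavin monooxygenases of auxin synthesis, had differences of opposite sign, -0.64 ± 0.16 (adjusted p = 0.0524) and 0.65 ± 0.19 (adjusted p = 0.0813). YUC2 gave 45.0 and 49.7 in Col and 23.9 and 25.1 in miR319b. RR16, a response regulator of cytokinin signalling, gave 35.0 and 60.7 in Col and 15.3 and 15.04 in miR319b (-1.004 ± 0.30, adjusted p = 0.0933). None of these 3 genes was called.

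Of 14 expansin and xyloglucan enzyme genes none was called. EXPA15, an expansin that loosens cell walls, gave 378 and 259.7 in Col and 634 and 951 in miR319b (1.27 ± 0.31, adjusted p = 0.055). In the stomatal lineage, where SPCH and FMA are master regulators, none of 3 was called, and STOMAGEN, a secreted peptide that promotes stomata, was at -0.67 ± 0.22 (adjusted p = 0.113). The 6 flowering and age genes lay between -0.10 and 0.38, with none called. The 4 gibberellin genes lay between -0.43 and 0.18, with none called.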

How the data were processed

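Total RNA of 10 vegetative apex samples, 2 in each of 5 groups, was hybridised to Affymetrix arrays. The authors deposited linear probe set intensity values, for which the submitters' processing notes name MAS5. The sources used here do not give its version, the array build or scan batches, and the files hold no detection calls. Names come from the platform annotation, with symbols updated through a RefSeq gene table. Of 22746 probe sets without controls, 13513 had 1 gene.

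AFFX controls were removed, values were taken as log2(value + 16), and probe sets whose mean of these reached the 40th percentile were tested. A single limma model (version 3.58.1, R 4.3.3) with group terms was fitted to the 10 arrays, using eBayes with an intensity trend and 5 residual degrees of freedom. On simulated data for miR319b against Col over 13648 probe sets, 4.48% of log2 changes of 0.5 were recovered, 70.1% of 1 and 100.0% of 2, with 5 false calls. The simulation gave all groups the same spread, taken from the fit, and changed few probe sets. In the real data the groups differed in spread, so recovery and false calls there may differ from these values. Filtering on the mean of linear values was tried first, and the filter used here was chosen after both counts of calls had been seen. Settings tried are given in the closing section.

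Members and gene lists were chosen with earlier results of these data known. The lists match gene symbols and synonyms, and 73 entries that matched other words were removed by name after values had been seen. Genes named are the 15 largest called rises and falls with 1 gene and no overlap between groups, up to 4 called members of each list or the member of smallest p, and the measured markers. All other called genes with a symbol, further list members and the ATG8 family were named after their values were seen. The promoter search for TCP motifs planned for this comparison was not run, and no sequences are used here.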

Additional observations from a re-analysis of the deposited data

Results flagged for a closer look

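QQS was marked because its difference between miR319b and Col was not the same as its difference between octa and miR-3TCP. The effects differed by -4.81 ± 0.27 on the log2(signal + 16) scale (limma interaction, adjusted p = 8.75e-05), with -4.35 ± 0.19 between miR319b and Col and 0.46 ± 0.19 (adjusted p = 0.303) between octa and miR-3TCP. The signals were 805 and 677 in Col and between 1.18 and 21.1 on the other 8 arrays. QQS passed the filter on low signals only through Col, so the size of the difference depends on the pseudocount and was -3.39 with a pseudocount of 64 (adjusted p = 4.06e-06). In miR-3TCP the signals were already too low for a fall of such size in octa. The call for QQS thus rests on the high Col arrays, and no conclusion is drawn from it.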

How the results depend on the processing

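The count of 518 probe sets called between miR319b and Col became 238 with no filter, 1332 without the BLS>>TCP4 arrays (all 518 among them) and 7 to 57 without 1 of the 4 arrays. The count of 330 between octa and miR-3TCP became 84 with no filter, 592 without BLS>>TCP4 and 6 to 19 without 1 of its own 4 arrays. The single call for the difference of the 2 effects became 0 with a pseudocount of 1 and 0 with the 60th percentile filter, settings under which QQS was not tested, and was 1 to 2 without 1 array. Between octa and miR319b, 2 were called with a pseudocount of 1, 2 with the 60th percentile filter, 2 after quantile normalization and 1 without BLS>>TCP4. The share of calls that kept their sign became 92.9% with no filter, 85.1% without BLS>>TCP4 and 85.7 to 95.7% without 1 array. The 4 mitosis calls became 2 with the 60th percentile filter, which left fewer genes tested, and 0 to 1 without 1 array. The 5 tetrapyrrole calls became 0 without any 1 of the 4 arrays. A fit with 1 array left in a group assumes that it varies like the others.

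Between miR319b and Col, the other settings gave 399 calls with no intensity trend, 494 with a pseudocount of 64, 502 with a pseudocount of 1, 502 after centring each array on its median, 514 with the 60th percentile filter, 578 after quantile normalization and 549 with the filter on linear means, a setting added after the data had been seen. With only the miR319b and Col arrays 509 were called, 361 of them among the 518. The replicate block gave 535 calls, 448 of them among the 518. Replicate deviations of Col and miR319b correlated at -0.20 and those of octa and miR-3TCP at 0.10, and the labels do not say that a number marks a shared batch. Of the 89 named genes, 67 were called. Under the 19 settings none of these changed sign where it was tested. Calls were lost for 32 with no filter, 12 with only the miR319b and Col arrays, 53 to 63 without 1 of these 4 arrays, 23 to 25 without 1 array of octa or miR-3TCP, and at most 8 under the remaining settings among genes tested. With the 60th percentile filter 26 of the 67 were not tested, and with a pseudocount of 1 this was so for 1.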
